A study of Mus musculus with 4 samples.

Results

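In the single-nucleus ATAC-seq (snATAC-seq) map of mouse inguinal white adipose tissue (iWAT), 1 of the 12 clusters carries the annotation VSMC, for vascular smooth muscle cells. It was taken here as all nuclei with that entry in the deposited annotation, which gave 283 of 32552 nuclei (0.869%). The assay reads open chromatin: the Tn5 transposase cuts DNA where it is accessible, and combinatorial barcodes assign the fragments to nuclei. The deposited matrix covers 189598 peaks and is binary, so a count is 1 nucleus with reads in 1 peak, and a sum over nuclei counts such nuclei. The median VSMC nucleus had 1632 counts, rank 4 of the 12 clusters, against 1815 in APC2, 1072 in VEC and 2561 in Adipocyte. APC1 and APC2 are the annotated adipocyte progenitor clusters and VEC the annotated vascular endothelial cluster.

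All animals were male C57BL/6J mice, 8 weeks old, with 3 mice in each of 7 groups. The day0RT group was taken before treatment at room temperature (22 °C). The day1C, day3C and day7C groups were kept in the cold (6.5 °C) for 1, 3 or 7 days, and the day1CL, day3CL and day7CL groups received CL-316,243 for as long, at 1 mg/kg, which activates the β3-adrenergic receptor Adrb3 (treatment called CL). Nuclei came from whole minced tissue, without a sort for a cell type. VSMC nuclei were found in 17 of the 21 mice, and 10 mice, 5 in the cold and 5 on CL, had at least 10 of them. These 10 libraries held 252 nuclei and between 11074 and 168800 counts in peaks of genes. No day0RT or day1C mouse reached 10. The 2 mice with the most nuclei, both day3C, held 100 VSMC nuclei (35.3%). Of the 283 nuclei, 89 (31.4%) carry a barcode sequence that also occurs in a nucleus of another mouse, against 26.8% of all nuclei. The authors had removed doublets with Scrublet before deposit, and none were removed here.

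Vascular smooth muscle wraps arteries and veins and contracts through smooth muscle actin (Acta2), smooth muscle myosin (Myh11) and their partners, while pericytes sit on capillaries and depend on the receptor Pdgfrb. Skeletal muscle fibres are striated: thick and thin filaments are held in sarcomeres by titin (Ttn) and nebulin (Neb), calcium released from the sarcoplasmic reticulum starts contraction, and creatine kinase (Ckm) buffers ATP. MyoD-family factors bind E-boxes and MEF2 factors bind AT-rich sites at muscle genes, whereas smooth muscle genes are typically driven by SRF and myocardin through CArG boxes. Ttn, Ckm and the myosin light chain kinase Mylk4 were given as markers of the cluster, and Mylk4, Myh4, Myog, Myf5 and Myod1 were among the genes the study named it by, so none of these is independent evidence of what the nuclei are. The gene lists used below were chosen with earlier results of these data known.

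The sequences below are the promoters of the 3 marker genes and 4 of the 5 peaks over 2000 bases from a gene start that had the largest excess over the other clusters, shown because the results turn on these genes and peaks. The peak not printed, chr11:67119605-67119857, had the largest ratio of all and lies between Myh3 and Myh2, like 1 of the printed peaks. Promoters are RefSeq sequences (GRCm38.p6) upstream of the annotated start, on the gene's strand, and peaks are the central 300 bases on the plus strand of mm10. Capitals mark the E-box CAGCTG, which reads the same on both strands, or, in the Ttn promoter, a MEF2 site. The similar stretch ctaaaattaa in the Mylk4 promoter did not match the MEF2 pattern used and is not marked. The MEF2 shares given below hold for that pattern only. The Ckm stretch ends before an annotated exon. It lies before the RefSeq start of Ckm, which is inside the longer GENCODE interval used for its counts. The Ckm stretch lies within a peak and most of the Ttn stretch does, while no peak covers that of Mylk4, whose nearest peak is centred 701 bases into the gene.
Ttn promoter, chr2:76982548-76982797, minus strand: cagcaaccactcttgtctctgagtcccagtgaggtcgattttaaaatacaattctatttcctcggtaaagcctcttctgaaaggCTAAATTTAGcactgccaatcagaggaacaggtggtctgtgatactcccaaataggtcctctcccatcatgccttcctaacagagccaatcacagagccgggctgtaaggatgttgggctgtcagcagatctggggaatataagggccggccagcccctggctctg
Mylk4 promoter, chr13:32783965-32784214, minus strand: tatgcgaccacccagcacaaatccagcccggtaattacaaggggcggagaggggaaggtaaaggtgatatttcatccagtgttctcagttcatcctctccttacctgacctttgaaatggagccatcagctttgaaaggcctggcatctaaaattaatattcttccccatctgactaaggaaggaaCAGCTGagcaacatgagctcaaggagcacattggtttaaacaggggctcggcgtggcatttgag
Ckm promoter, chr7:19410844-19411024, plus strand: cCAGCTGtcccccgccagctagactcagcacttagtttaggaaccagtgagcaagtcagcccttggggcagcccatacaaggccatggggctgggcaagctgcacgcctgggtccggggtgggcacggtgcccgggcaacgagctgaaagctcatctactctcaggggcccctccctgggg
Peak between Pvalb and Ncf4, chr15:78227743-78228042: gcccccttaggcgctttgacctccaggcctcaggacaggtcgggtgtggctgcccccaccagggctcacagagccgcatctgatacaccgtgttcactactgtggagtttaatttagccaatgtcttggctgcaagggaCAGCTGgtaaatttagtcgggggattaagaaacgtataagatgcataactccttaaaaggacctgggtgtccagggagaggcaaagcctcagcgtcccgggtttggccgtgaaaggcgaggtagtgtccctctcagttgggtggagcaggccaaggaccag
Peak between Tpm1 and Tln2, chr9:67114128-67114427: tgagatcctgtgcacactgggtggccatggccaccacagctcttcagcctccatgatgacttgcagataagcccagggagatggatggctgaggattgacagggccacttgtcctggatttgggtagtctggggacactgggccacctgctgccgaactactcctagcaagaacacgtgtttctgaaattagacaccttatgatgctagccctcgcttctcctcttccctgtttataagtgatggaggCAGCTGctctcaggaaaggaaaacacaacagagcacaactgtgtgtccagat
Peak between Myh3 and Myh2, chr11:67105780-67106079: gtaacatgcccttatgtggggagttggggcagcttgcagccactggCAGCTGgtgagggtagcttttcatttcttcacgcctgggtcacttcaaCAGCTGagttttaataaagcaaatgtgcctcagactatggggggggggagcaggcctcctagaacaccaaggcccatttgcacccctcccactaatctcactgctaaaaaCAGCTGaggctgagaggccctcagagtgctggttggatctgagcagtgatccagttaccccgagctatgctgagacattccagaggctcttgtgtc
Peak between Mrpl23 and Igf2, chr7:142600727-142601026: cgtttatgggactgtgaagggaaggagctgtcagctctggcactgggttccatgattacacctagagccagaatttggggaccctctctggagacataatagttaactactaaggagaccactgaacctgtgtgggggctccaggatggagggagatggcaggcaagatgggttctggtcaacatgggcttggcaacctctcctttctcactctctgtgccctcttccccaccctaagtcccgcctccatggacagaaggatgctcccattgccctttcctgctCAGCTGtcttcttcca
The peak between the embryonic and fast myosin genes Myh3 and Myh2 holds 3 of these E-boxes in its printed stretch, and each of the other printed peaks holds 1. A match is a description of the letters and not evidence of binding.

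The given markers, which define the cluster and do not test its label, are described first. A gene was given every peak over its body or within 2000 bases upstream, and its level is given in CPM, its counts scaled by the cluster's or library's counts in all such peaks. Clusters were pooled over nuclei for this description, without a test, since the same counts had made the clusters. All 3 given markers stood highest in the VSMC cluster. Ttn (chr2:76703980-76982547), the spring of the sarcomere, reached 464 CPM, 10.5 times the next cluster, and 52.7% of VSMC nuclei had a count there against 6.76% of APC2 nuclei. Mylk4 (chr13:32700834-32783954) reached 370 CPM against 76.2 in Adipocyte, the next cluster, and Ckm (chr7:19404776-19422841) 283 CPM against 66.9 in the next. Ckm shares 3 of its 6 peaks with the neighbouring gene Klc3, so part of its counts may belong there.

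In single mice the VSMC values were set against APC2 and VEC only. Across the 10 libraries Ttn ranged from 422 to 714 CPM around a median of 462, with a mean of 491 ± 89.7 (SD, n = 10). In APC2 it was 34.7 ± 23.9 CPM (SD, n = 19 mice) and did not exceed 81.0, so the ranges did not overlap. Mylk4 ranged from 209 to 872 CPM with a median of 395, and APC2 stayed at or under 37.6. Ckm varied more, from 79.3 to 464 CPM with a median of 278, and its libraries lay above the APC2 maximum of 37.4, except that the 79.3 CPM of day7CL_3 is 1 count and gives no order. In VEC, Ttn and Ckm reached 124 and 116 CPM in the highest of 15 mice, so the VSMC and VEC ranges of Ckm overlapped. In each of the 9 mice with both libraries the VSMC value of Ttn and Mylk4 was the higher one.

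The label was checked on the defining genes of vascular smooth muscle and pericytes. Acta2 (chr19:34241090-34255590) had 11 counts or 16.7 CPM, the lowest of the 12 clusters, against 99.5 CPM in APC2, the highest. In single mice it was at 0 in 6 of the 10 libraries, where 0 allows 63.3 to 271 CPM, so these cannot be set against the APC2 minimum of 40.5. In the 2 deepest libraries, day3C_1 and day3C_2, it was at 17.8 and 15.3 CPM against 56.0 and 119 in APC2 of the same mice, on 3 and 2 counts. Myh11 (chr16:14194535-14291372) stood at 74.6 CPM pooled, rank 4 of the 12 clusters and close to Adipocyte at 75.7 and Beige at 80.7, and at 75.8 ± 60.9 (SD, n = 10) in libraries. Its APC2 libraries held 223 ± 64.0 CPM (SD, n = 19), and APC2 was higher in 7 of the 8 mice with both, while the 0 counts of day7CL_3 allow 238 CPM and give no order. Tagln, which encodes the actin-binding protein transgelin, had 18.3 CPM against 81.3 in APC2. The pericyte receptor gene Pdgfrb had 18.3 CPM pooled against 182 in APC2. It was lower than APC2 in each of 8 mice, though at 0 in 4 of these and on at most 3 counts in the others. Summed over its genes, the smooth muscle list took 0.105% of the pooled peak counts, rank 2 of the 12 clusters after APC2 at 0.154%, and the pericyte list 0.0312%, rank 4. Synpo2, an actin bundler that striated muscle uses too, made up 53.6% of the smooth muscle list's summed CPM, and without it the list took 0.0485%, rank 6, against 0.104% in APC2. Synpo2 was left out after the values were seen, as the list's gene with the highest VSMC level. The lower rank follows in part from that choice. Acta2, Tagln and Pdgfrb thus go against the label, and Myh11 is intermediate. Other members of the 2 lists differ. Synpo2, Lmod1 and Pln, 3 of 13 smooth muscle genes, were highest in the VSMC cluster, against 0 of 10 pericyte genes and 11.9% of all genes. Smtn and Mcam were among those above APC2, as given below. The cluster is called the VSMC cluster below only after its annotation.

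**Figure D1:**
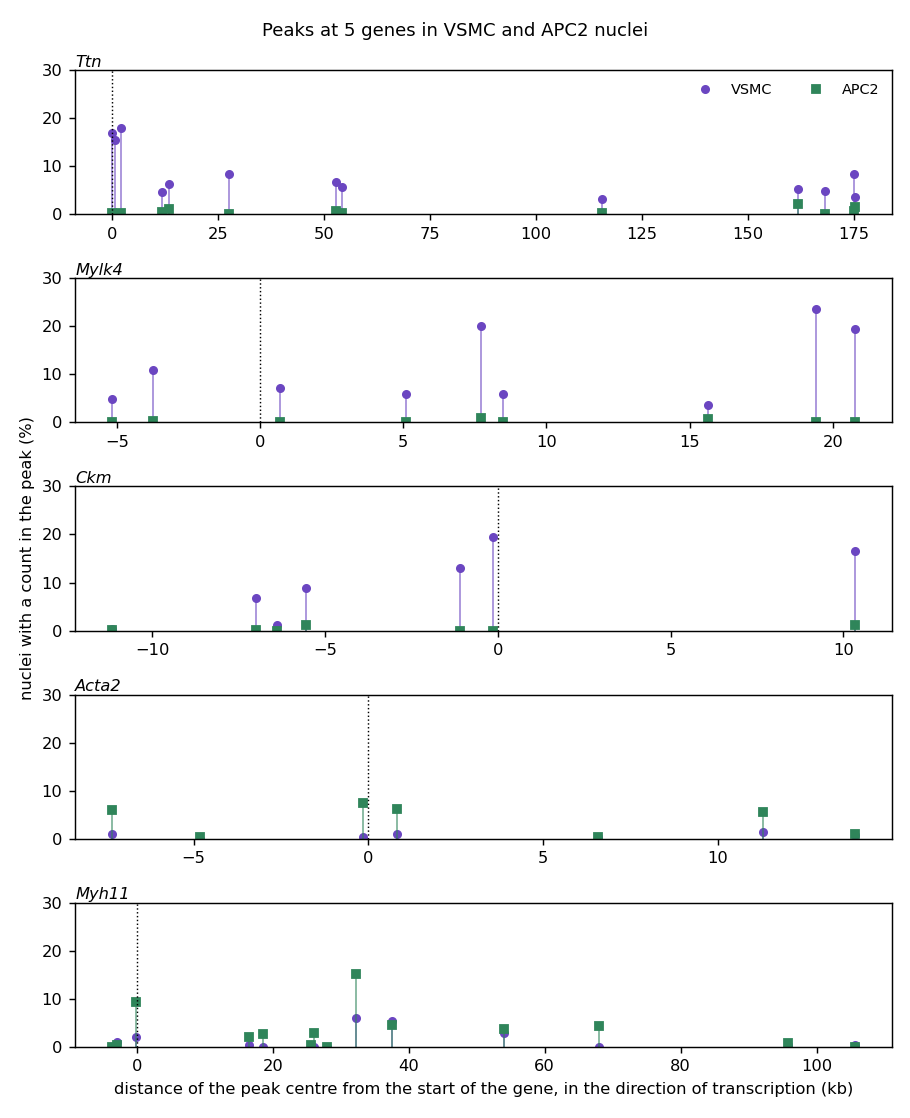
Percentage of nuclei with a count in each peak (y axis) against the distance of the peak's centre from the gene's start in kb (x axis, in the direction of transcription, dotted line at the start), for VSMC nuclei (circles) and APC2 nuclei (squares). VSMC nuclei stand above APC2 at Ttn, Mylk4 and Ckm, with up to 23.7% of nuclei at a Mylk4 peak, and APC2 nuclei stand above VSMC at most peaks of Acta2 and Myh11, with up to 15.1% at a Myh11 peak.

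Single peaks show the same order. At the Ttn start, 17.0% of VSMC nuclei (48) and 0.178% of APC2 nuclei (1) had a count, and 4 more peaks within the gene, counted in 24 to 51 VSMC nuclei each, were preferred as defined below. At Ckm the peak centred 153 bases before the start was counted in 55 VSMC nuclei (19.4%) and in no APC2 nucleus, where 0 of 562 allows a share of up to 0.534%. Of the Mylk4 peaks, those 7712 and 19424 bases into the gene were counted in 20.1% and 23.7% of VSMC nuclei and in 0.890% and 0.178% of APC2 nuclei. At the start of Acta2 the order was the opposite, with 1 VSMC nucleus (0.353%) and 42 APC2 nuclei (7.47%). The start of Myh11 was counted in 6 VSMC nuclei (2.12%) and 52 APC2 nuclei (9.25%).

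Genes of the contractile apparatus were open together. Of the 31 sarcomere genes with enough counts to rank, 30 were highest in the VSMC cluster. The background is 11.9% of 17135 genes with at least 20 counts over the 12 clusters. All 31 were at least 2-fold above the mean of the other 11 clusters, against 8.91% of all genes. Their median log2 ratio to that mean, with 1 CPM added to both, was 3.62, against -0.23 over all genes. Without Ttn, Mylk4 and Myh4, by which the cluster was marked or named, 27 of 28 were highest and the median was 3.43. Ldb3, a Z-disc protein gene, was at 569 CPM, Neb at 477 CPM and Myom1, of the M-band, at 455 CPM, each 2.29 to 4.32 times the next cluster. The troponin genes Tnnt3 and Tnni2 stood at 277 and 263 CPM, and the skeletal actin gene Acta1 at 100 CPM against 22.2 in Adipocyte. Tcap, the titin cap, had 113 CPM and was 19.6 times the next cluster, which had 3 counts (95% exact counting interval of the ratio 6.44 to 97.0), but its only peak is shared with Pnmt. The exception was the fast myosin gene Myh2, with 5 counts (7.61 CPM) against 12.4 CPM in APC1, and Mylpf had no peak.

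The machinery that couples the nerve impulse to calcium release followed the same order. Of 17 genes, 16 were highest in the VSMC cluster, against 11.9% of all genes. The median log2 ratio was 2.62, against -0.23 over all genes. Ryr1, the calcium release channel, stood at 344 CPM, Cacna1s, the voltage sensor, at 231 CPM, and Casq1, which stores calcium, at 241 CPM. Jph2, which ties the reticulum to the surface membrane, was at 379 CPM, 8.05 times the next cluster. In the 10 libraries it ranged from 159 to 495 CPM with a median of 396, and APC2 did not exceed 66.0. Pvalb, the calcium buffer of fast fibres, was at 136 CPM and 21.3 times the next cluster. Its single-mouse values ran from 0 in day1CL_3, a library of 11074 counts where 0 allows up to 271 CPM, to 397 CPM in day7CL_3. The micropeptide gene Mrln was the exception, at 35.0 CPM against 58.7 in APC1, and Scn4a, the muscle sodium channel, was close to the B cell cluster at 213 against 191 CPM.

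Genes of muscle energy supply stood highest in 16 of 16 cases, with a median log2 ratio of 2.25, and in 15 of 15 without the marker Ckm. Over all genes the share was 11.9% and the median -0.23. Pfkm, the muscle phosphofructokinase, was at 318 CPM and 4.09 times the next cluster. Pgam2 and the mitochondrial creatine kinase gene Ckmt2 were 6.72 and 12.1 times the next. Several margins were thin: Fbp2 stood at 68.5 CPM in both VSMC and Beige, and Mb, the myoglobin gene, at 213 against 185 CPM in Adipocyte. The insulin-responsive glucose transporter gene Slc2a4 was at 184 CPM against 103 in Beige. Of the 16 genes, 7 share at least 1 peak with another gene.

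**Figure D2:**
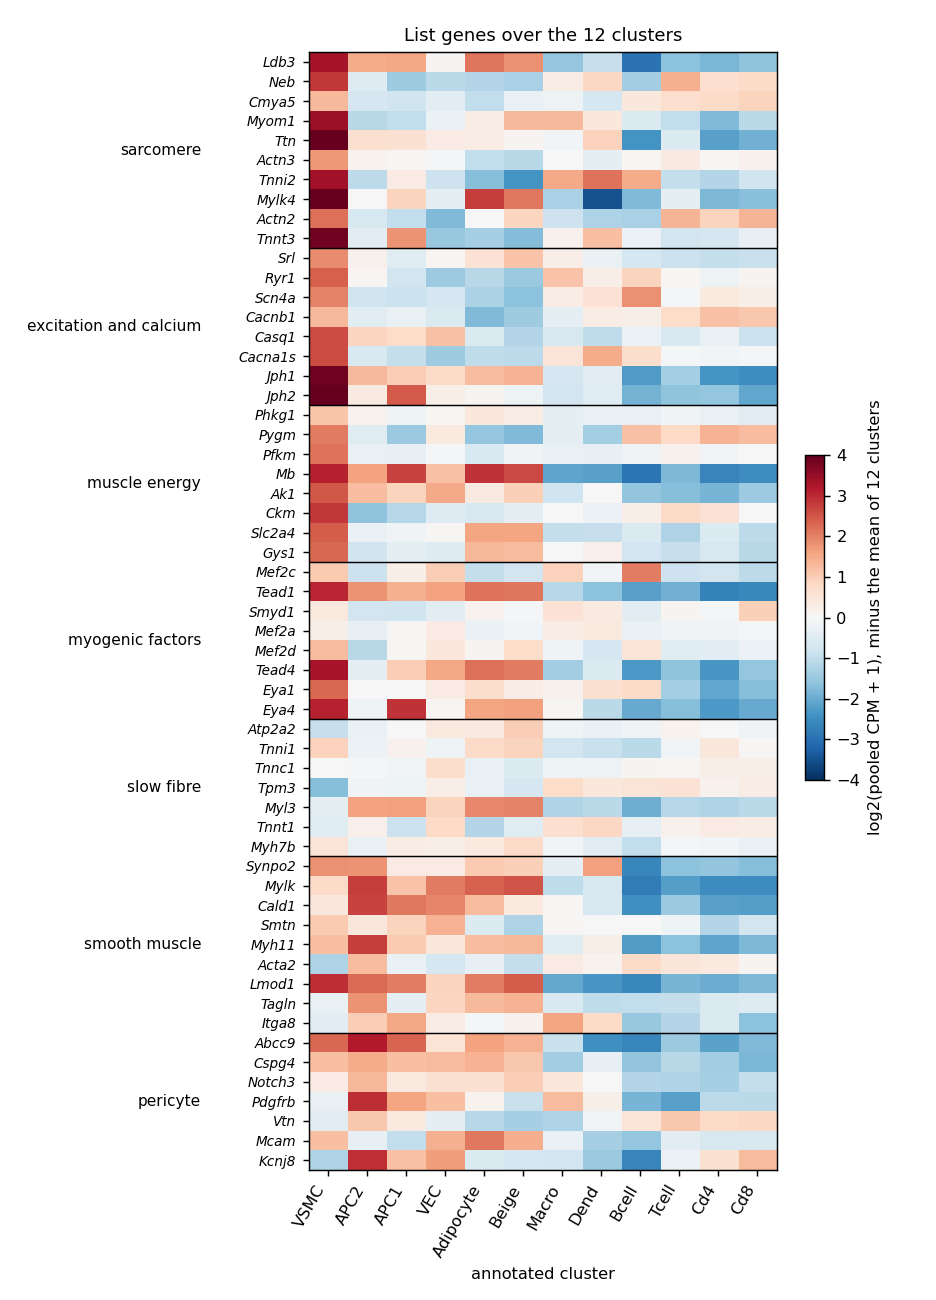
Accessibility of list genes (rows, members of each list chosen by high mean CPM over clusters) in the 12 annotated clusters (columns), as log2(pooled CPM + 1) minus the gene's mean over the 12 clusters. The VSMC column is red through the sarcomere, calcium and energy lists, of which 62 of 64 ranked genes were highest there, and the APC2 column is the darkest at Acta2, Myh11 and Pdgfrb.

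Fast fibre genes were mostly highest in the VSMC cluster, and slow fibre genes stood near the values over all genes. Of 11 fast fibre genes ranked, 10 were highest in the VSMC cluster and the median log2 ratio was 3.79, or 9 of 10 and 3.64 without Myh4. Myh4, the fastest myosin heavy chain (chr11:67238029-67260446), has 1 peak, with 36 counts in VSMC nuclei, or 54.8 CPM, against 1 count in the next cluster (ratio 60.9, 95% exact counting interval 10.3 to 2473). Per kb of peak it had the largest value of the list, at 253 CPM per kb, before Pvalb at 192 and Tnnt3 at 141. On 36 counts in 1 peak its place before Pvalb is uncertain. In single mice Myh4 was at 0 in day1CL_3, at 15.0 CPM in day7C_3 and at 159 CPM in day7CL_3, with a median of 51.7. The 0 of day1CL_3 allows up to 271 CPM, so these values give no order between mice. Only 1 of 19 APC2 libraries had any count at Myh4. Of 10 slow fibre genes ranked, 1 was highest in the VSMC cluster, Tnni1 at 120 CPM against 116 in Beige. Over all genes this share was 11.9%. The median log2 ratio of the slow list was -0.39, against -0.23 over all genes. The difference between the fast and slow lists was not tested. Myh7, the slow myosin heavy chain, had 0 counts, which allows up to 4.57 CPM at this depth. Atp2a2, the slow and heart calcium pump, was lowest of the 12 clusters at 47.2 CPM, while the fast pump Atp2a1 was highest at 155 CPM. The slow list overlaps with genes of other tissues, since Atp2a2 and Tpm3 are used widely.

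Regulators of the muscle lineage were open in part. Of 14 ranked genes, 10 were highest in the VSMC cluster, against 11.9% of all genes. Their median log2 ratio was 2.23, and 9 of 12 were highest without Myod1 and Myog. Myod1 stood at 68.5 CPM against 20.6 in Cd8, and was counted in all 10 libraries, from 42.2 to 181 CPM. Myf6, the MyoD-family gene of mature fibres, had 22 counts or 33.5 CPM against 1 count in the next cluster (ratio 55.5, interval 8.98 to 2293). Myog, used early in fibre formation, had 6 counts (9.14 CPM) and ranked 4 of 12, and Myf5 and Vgll2 had no peak. Tead4, a TEAD-family factor, stood at 260 CPM. Mef2c was second to the B cell cluster, at 376 against 748 CPM. Of the 8 satellite cell genes, which mark the stem cells of muscle, 1 was highest, Cdh15 with 14 counts, and its 3 peaks are shared. This share is close to the 11.9% of all genes. At least 2-fold above the mean of the other 11 clusters were 4 of the 8, against 8.91% of all genes. Their median log2 ratio was 0.82, against -0.23 over all genes, and the list ranked 2 of 12 in its share of peak counts. Pax7, the main factor of these stem cells, had 20 counts or 30.4 CPM against 54.9 in the B cell cluster. Of 13 membrane genes 9 were highest, among them Cav3, the caveolin of muscle, at 6.32 times the next cluster. Of 9 neuromuscular junction genes 2 were, Dok7 and Lrp4. Both lists stand against the same 11.9% of all genes.

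The 20 genes with the largest ratio to the next cluster, among 4023 genes with at least 50 VSMC counts, add names outside the lists. Lrrc30 led at 39.9 times the next cluster with 77.7 CPM, and was counted in all 10 libraries (59.97 to 159 CPM) and in no APC2 library. Jsrp1, Pvalb, Tcap, Lrrc38, Trim72, Trim54, Hfe2 and Myot followed, at 28.2 to 14.6 times the next cluster, with 3 counts in the next cluster for Jsrp1 (interval of its ratio 9.11 to 141). Trim72 encodes a membrane repair protein of striated muscle, Trim54 a sarcomere-bound ligase, Hfe2 the iron regulator hemojuvelin and Myot a Z-disc protein. Nmrk2, Ckmt2, Fem1a, Tmem233, Ttn, Ros1, Tmod4, Acsl6, 3425401B19Rik and Jph2 completed the set with Pnmt, which shares the Tcap peak, at 19.6 to 8.05 times the next.

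Smooth muscle genes reached the top in 3 of 13 cases, Synpo2, Lmod1 and Pln, and pericyte genes in 0 of 10, against the background of 11.9%. Their median log2 ratios were 0.02 and 0.18. Synpo2, an actin bundler of smooth and striated muscle, was at 655 CPM in VSMC and 637 in APC2, and the VSMC library was the higher in 3 of 8 mice. Lmod1, which nucleates actin filaments in smooth muscle, was at 108 CPM against 74.6 in Beige, and Pln, the inhibitor of the slow and heart calcium pump, had 10 counts in a peak shared with Cep85l. Mylk, the smooth muscle light chain kinase, was at 105 CPM against 431 in APC2, Cald1 at 59.4 against 286, and Cnn1 was low in both, at 3.05 and 3.46 CPM. Smtn, which encodes smoothelin, went the other way, at 129 CPM against 86.5 in APC2 and 165 in VEC, the highest. Among pericyte genes Abcc9 had the most counts, at 125 CPM against 227 in APC2, and Rgs5 and Kcnj8 had 3 counts each, while Mcam was at 41.1 against 13.8 in APC2 and 79.2 in Adipocyte.

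Summed over a list, the counts of a library tell the same per mouse. The sarcomere list took 0.547% ± 0.0745 of all peak counts (SD, n = 10), from 0.437% in day3CL_3 to 0.652% in day3CL_2. In APC2 it took 0.0555% ± 0.00810 (SD, n = 19), in VEC 0.0446% ± 0.0219 (n = 15) and in Adipocyte 0.0684% ± 0.00464 (n = 21), with no overlap with VSMC. The calcium list took 0.299% ± 0.0168 in VSMC and 0.0429% ± 0.00706 in APC2, and the energy list 0.244% ± 0.0244 and 0.0437% ± 0.00697. Without Ttn, Mylk4 and Myh4 the sarcomere list took 0.463% ± 0.0599 in VSMC and 0.0520% ± 0.00746 in APC2, still without overlap. The ranges of the slow fibre list overlapped, at 0.0234% ± 0.00594 in VSMC and 0.0258% ± 0.00485 in APC2. The smooth muscle list took 0.102% ± 0.0256 in VSMC against 0.154% ± 0.0179 in APC2, with overlapping ranges, and 0.0793% ± 0.0235 in VEC and 0.0898% ± 0.00633 in Adipocyte. Without Synpo2 it took 0.0451% ± 0.0111 in VSMC and 0.104% ± 0.0130 in APC2, with no overlap, 0.0618% ± 0.0191 in VEC and 0.0584% ± 0.00482 in Adipocyte. Synpo2, the list's gene with the highest VSMC level, was taken out after the values were seen. The lower VSMC share and the lost overlap follow in part from that choice. Pericyte genes took 0.0276% ± 0.00553 in VSMC and 0.0673% ± 0.0101 in APC2, without overlap.

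**Figure D3:**
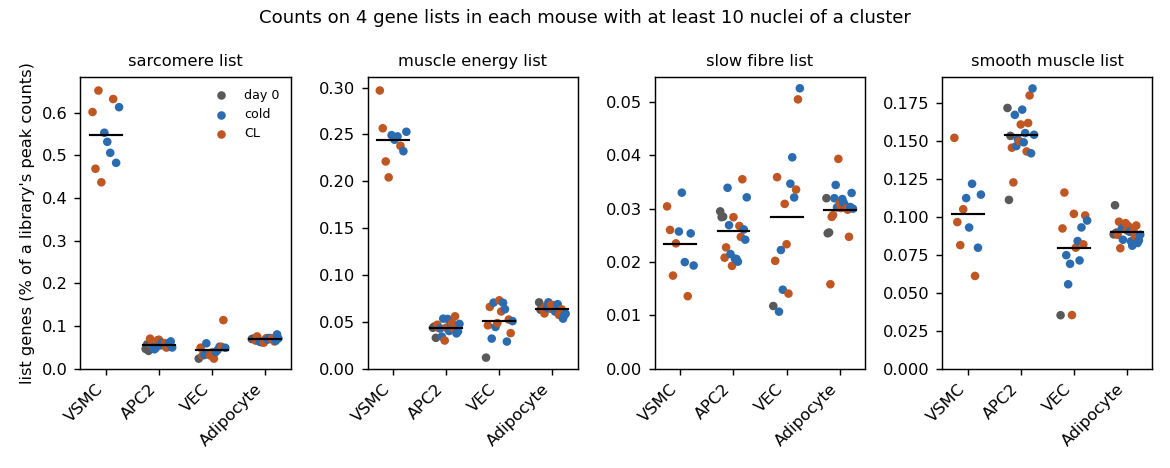
Percentage of a library's peak counts that fall on 4 gene lists (y axes) in each mouse with at least 10 nuclei of a cluster (points, coloured by treatment, bar at the mean), for VSMC (n = 10), APC2 (n = 19), VEC (n = 15) and Adipocyte (n = 21). VSMC libraries stand apart on the sarcomere list (mean 0.547% against 0.0555% in APC2) and the energy list, overlap with the others on the slow fibre list and lie below the APC2 mean on the smooth muscle list.

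Pooled over all mice of a group, small ones included, the shares were less even. The 5 nuclei of day0RT gave 0.486% of counts on the sarcomere list and the 26 of day7CL 0.469%. The 13 nuclei of day1C gave 0.198%, with 0.265%, 0.318% and 0.0780% in the 3 mice, of which the last had 13 list counts in 16657. No day1C mouse had more than 6 VSMC nuclei, and its value in 1 mouse lay within the range of Adipocyte libraries (0.0608% to 0.0802%).

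The muscle signal was spread over the nuclei and not carried by a few. Each nucleus was thinned at random to 500 counts, which left out 27 shallower VSMC nuclei and 33 of APC2. Of the 256 VSMC nuclei kept, 98.0% had at least 1 count on the sarcomere, calcium and energy lists, against 53.3% of 529 APC2 nuclei and 46.2% of 286 VEC nuclei. At least 3 such counts were found in 85.9% of VSMC, 3.97% of APC2 and 2.10% of VEC nuclei, and in 82.0%, 3.78% and 1.75% without Ttn, Mylk4, Ckm and Myh4. Before thinning, 98.9% of VSMC, 85.4% of APC2 and 71.5% of VEC nuclei had at least 1. At least 1 smooth muscle or pericyte count was found in 46.5% of thinned VSMC nuclei, 70.1% of APC2 nuclei and 38.5% of VEC nuclei. In 244 of the 256 VSMC nuclei the skeletal lists had more counts than the smooth muscle and pericyte lists, in 8 the counts were equal and in 4 they were fewer. In APC2 these numbers were 122, 162 and 245 of 529. The skeletal lists cover 374 peaks and the smooth muscle and pericyte lists 210, on which APC2 ranked first of the 12 clusters. Mean thinned counts on the skeletal and on the other lists were 5.41 and 0.602 in VSMC, and 0.737 and 1.14 in APC2. They were 0.615 and 0.517 in VEC, 0.844 and 0.579 in Adipocyte, and 0.689 and 0.142 in the B cell cluster. More skeletal than smooth muscle counts is thus not particular to VSMC nuclei, whereas the level of their skeletal counts stands apart.

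**Figure D4:**
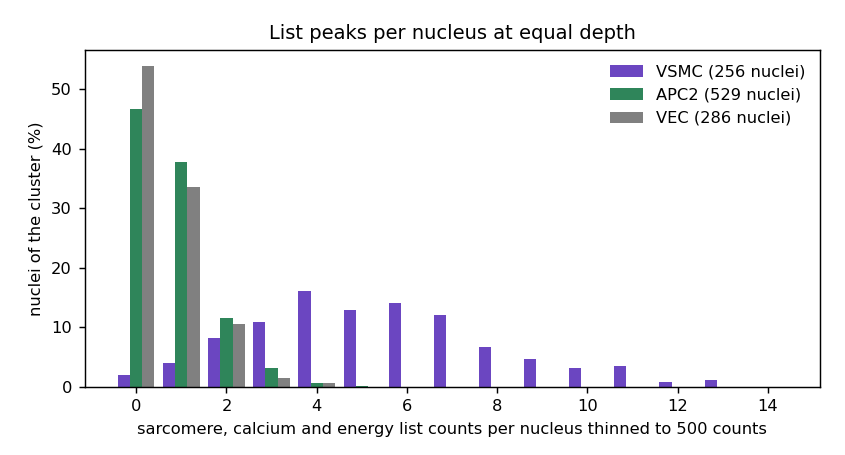
Percentage of nuclei (y axis) by the number of counts on the sarcomere, calcium and energy lists (x axis) after every nucleus was thinned to 500 counts, for VSMC (256 nuclei), APC2 (529) and VEC (286). Only 1.95% of VSMC nuclei have no such count, and their mode lies at 4 counts (41 nuclei).

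Markers of other cell types varied. The counts of highest genes in these lists stand against 11.9% of all genes. In lists this short a count of 0 is near that share and says little alone. Endothelial genes were highest in 0 of 12 cases, with Emcn and Tie1 at 0 counts and Kdr at 6.09 CPM against 179 in VEC. Erg and Cdh5 stood higher, at 76.1 and 60.9 CPM, against 286 and 99.8 in VEC and 17.3 and 15.6 in APC2. The endothelial list ranked 11 of the 12 clusters in its share of peak counts. Fibroblast, B cell, T cell and macrophage genes were highest in 0 of 12, 0 of 7, 0 of 8 and 0 of 8 cases. Their median log2 ratios were -1.41, -1.33, -1.84 and -0.63, against -0.23 over all genes. Of 7 cardiac genes with a peak none was highest, and Myh6, Nppa, Nppb, Myl7 and Nkx2-5 had no peak. Of 6 epithelial genes, Krt8 was highest with 13 counts, and the list ranked 2 of 12 in its share of peak counts (0.0257%), with Trp63, a factor of basal epithelium, at 242 CPM against 312 in Adipocyte and Krt14 at 0 counts. The Schwann cell list ranked 10 and the tendon list 4. Of 5 tendon genes, Scx and Thbs4 were highest, with 15 and 29 counts. The adipocyte list took 0.159% ± 0.0348 of counts (SD, n = 10), more than in APC2 (0.0659% ± 0.0115) and less than in Adipocyte (0.309% ± 0.0345). The gene of this list with the most counts was Plin4, a lipid droplet coat gene, highest in the VSMC cluster at 559 CPM against 442 in Adipocyte, and counted in 66.8% of VSMC nuclei. Adipoq, which defines adipocytes, had 4 counts (6.09 CPM), the lowest of the 12 clusters.

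Genes that answer cold or adrenergic signals were examined next. Of 18 ranked, 8 were highest in the VSMC cluster, against 11.9% of all genes. Their median log2 ratio was 0.68, against -0.23 over all genes. The list includes genes of muscle, and these values set the cluster against other clusters, not treated against untreated nuclei. Pde4d, a phosphodiesterase gene that ends cAMP signals, had the most counts of any list gene, at 1634 CPM (25.9 CPM per kb of peak) against 1047 CPM in Beige, and ranged from 1149 to 2528 CPM in the 10 libraries. Ucp3, the muscle uncoupling protein gene, was at 245 CPM against 156 in Beige, Ppargc1a at 218 against 167, and Mstn, the muscle growth inhibitor, at 62.4 CPM and 12.1 times the next cluster. The adrenergic receptor gene Adrb3, the target of CL, had 6 counts (9.14 CPM) against 152 CPM in Adipocyte, and Adrb1 had 13.7 CPM. Sln had no peak.

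Peaks were then compared without regard to genes. Of 10600 peaks counted in at least 20 VSMC nuclei, 1614 had at least 4 times the CPM of every other cluster, or 15.2%, and are called preferred. Without the first day3C mouse, which had the most VSMC nuclei, 881 peaks met these limits. The ratio was 4.01 for the last peak inside this limit and 4.00 for the first outside. Of the preferred peaks 15.1% lay at gene starts (up to 2000 bases away), 50.2% elsewhere in gene bodies and 34.7% between genes, close to all peaks (13.5%, 47.2% and 39.3%). The other peaks in at least 20 VSMC nuclei were mostly at gene starts (70.4%). The preferred peaks had 1076 different nearest genes, and 120 genes had 3 or more, led by Jph2, Nfib and Sec61b with 7 each, and Ttn, Myh3, Sox6, Ddit4l and 3425401B19Rik with 6. Of 106 peaks nearest to sarcomere genes and counted in at least 20 VSMC nuclei, 71 were preferred, at 26 of the 32 genes. The numbers were 37 of 47 for the calcium list, 15 of 33 for energy, 24 of 51 for myogenic factors and 24 of 38 for fast fibre genes. They were 0 of 2 for slow fibre, 2 of 12 for smooth muscle and 0 of 3 for pericyte genes, out of 72, 209 and 96 nearest peaks of any level, against 310 for sarcomere genes. The minimum of 20 VSMC nuclei admits only peaks that were open in the cluster, so these shares do not compare the lists.

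The 10 preferred peaks with the largest ratios named muscle loci and others. The first, between Myh3 and Myh2 (chr11:67119605-67119857), was counted in 35 VSMC nuclei (12.4%) at 185 times the next cluster, Adipocyte, where 6 nuclei had a count. The printed peak nearby in the same interval was counted in 49 nuclei (17.3%) at 130 times the next, with 12 Adipocyte nuclei. The peak between Pvalb and Ncf4 was counted in 29 nuclei at 184 times, and that between Tpm1, a tropomyosin gene, and Tln2 in 24 nuclei at 152 times the next. In each of these 5 Adipocyte nuclei had a count. Such small numbers, in peaks picked for their ratio, leave the ratios imprecise. The one counted in most nuclei was the printed peak between Mrpl23 and Igf2, 55142 bases from the Igf2 start, in 71 nuclei (25.1%) and in 1 nucleus of the next cluster. The others lay at the Trim54 promoter, inside Tead4 and Myot, between Tmem45b and Barx2, and between Gata5 and Slco4a1.

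Letters of known muscle motifs were counted in the central 500 bases of each peak on both strands. The E-box CAGCTG was in 45.4% of preferred peaks, 29.9% of the other peaks in at least 20 VSMC nuclei and 29.3% of all peaks. Away from gene starts the difference to the peaks also counted in VSMC nuclei narrowed, to 44.4% against 41.1%, with 29.3% of all such peaks. A MEF2 site was in 8.74%, 1.68% and 1.43% of the same sets, and away from gene starts in 8.32% of preferred and 3.91% of the other VSMC-counted peaks. The MEF3 site TCAGGTTTC was in 3.16%, 0.901% and 0.738%. The SRF CArG box was in 3.84%, 1.98% and 2.61%, and the TEAD site CATTCC in 26.8%, 18.3% and 25.6%. The AP-1 site TGANTCA was in 17.7%, 9.58% and 17.9%, and the ESRR site TCAAGGTCA in 1.36%, 0.645% and 1.14%. Away from gene starts the shares in preferred and other VSMC-counted peaks were 3.36% and 1.54% for MEF3, 3.94% and 2.82% for CArG, 27.1% and 25.4% for CATTCC, 18.02% and 18.5% for AP-1, and 1.17% and 0.826% for ESRR. The median GC content was 50.2% in preferred, 61.4% in the other VSMC-counted and 46.8% in all peaks, and its part in these shares was not tested. In RefSeq promoters, 28 of 56 of the sarcomere, calcium and energy lists (44 of 65 genes matched) held CAGCTG, against 16.3% of 32815 promoters, and 4 of 56 a MEF2 site, against 0.558%. For the smooth muscle and pericyte lists 5 of 18 promoters held CAGCTG and 1 of 18 a MEF2 site. The CArG box was in 5 of 56 promoters of the skeletal lists and 0 of 18 of the smooth muscle and pericyte lists, against 1.63% of all, and CATTCC in 9 of 56 and 7 of 18, against 14.7%.

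The share of VSMC nuclei was then compared between treatments, which asks whether its size changed with cold or CL. The day0RT mice had 0, 1 and 4 VSMC nuclei, or 0%, 0.0698% and 0.244% of their nuclei, where 0 of 1799 allows up to 0.167%. In day1C the shares were 0.143%, 0.394% and 0.290%. In day3C they were 3.67% (95% Wilson interval 2.84 to 4.73), 2.63% and 0.774%. All day3C mice lay above all day0RT mice, and the spread within day3C was wide. In day7C the shares were 1.27%, 0% and 1.96%, where 0 of 1233 allows up to 0.243%. In day1CL they were 0%, 0% and 1.26%, in day3CL 1.26%, 0.805% and 1.47%, and in day7CL 0.346%, 0.345% and 0.972%. All mice of day3CL and day7CL lay above the day0RT mice, while day1C, day1CL and day7C overlapped with them. The limits at 0 are 3 nuclei over the nuclei of the mouse. The 95% Wilson intervals of the same mice end higher, at 0.213% for day0RT_1 and 0.311% for day7C_2. Intervals and limits cover counting error only.

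**Figure D5:**
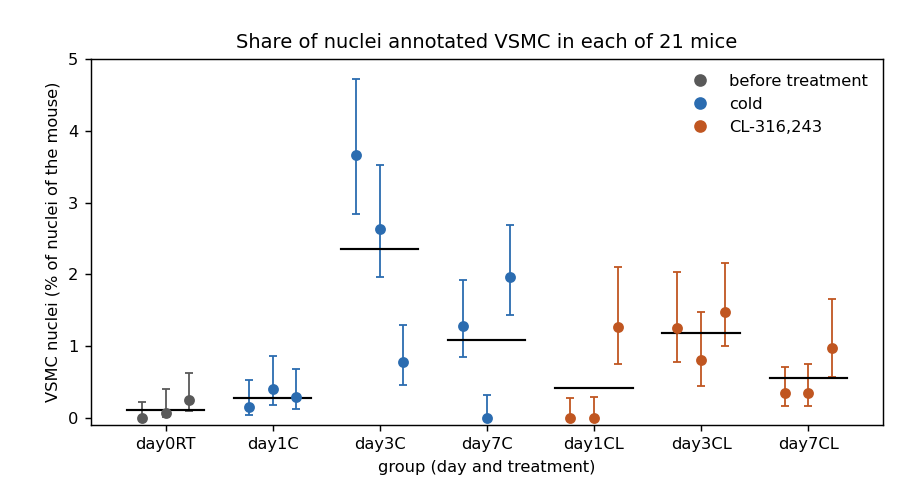
VSMC nuclei as a percentage of all nuclei of each mouse (y axis), by group (x axis), with 3 mice per group, 95% Wilson intervals as bars and group means as horizontal lines. The means run from 0.105% in day0RT to 2.36% in day3C, and single mice of day7C and day1CL are at 0%.

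Group means were 0.105% ± 0.126 in day0RT, 0.276% ± 0.126 in day1C, 2.36% ± 1.47 in day3C, 1.08% ± 0.995 in day7C, 0.420% ± 0.728 in day1CL, 1.18% ± 0.339 in day3CL and 0.554% ± 0.361 in day7CL (SD, n = 3 each). None of the 6 differences from day0RT passed an adjusted p of 0.05 in edgeR's quasi-likelihood test, with adjustment over the 72 tests of 12 clusters. The difference was largest in day3C, at 4.40 ± 1.41 on the log2 scale (SE, adjusted p = 0.100), followed by day3CL at 3.41 ± 1.39 and day7C at 3.31 ± 1.38 (both adjusted p = 0.246). It was 2.31 ± 1.40 in day7CL, 1.88 ± 1.44 in day1CL and 1.35 ± 1.44 in day1C (adjusted p = 0.469, 0.613 and 0.746). DESeq2 and a count of deeper nuclei only passed the threshold for some groups, with the values given in the closing section. Over all 18 treated mice the mean share was 0.977% against 0.105%, a difference of 0.872 percentage points (exact two-sided permutation test, p = 0.129, where the smallest possible is 0.000752). CL and cold, with 9 mice each, had 0.717% and 1.24%, a difference of -0.520 points (exact permutation p = 0.289).

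The make-up of the tissue pieces differed between mice. Lymphocytes were 11.9% of nuclei in day1CL_3, 14.1% in day3CL_2 and 36.8% in day3C_1, and between 58.2% and 90.8% in the other mice. Day1CL_3 was the single day1CL mouse with VSMC nuclei, and it alone sets the mean of that group. As a share of nuclei other than lymphocytes, VSMC were 0.355% ± 0.441 in day0RT, 1.06% ± 0.635 in day1C, 6.65% ± 3.55 in day3C, 4.01% ± 3.64 in day7C, 0.477% ± 0.826 in day1CL, 3.47% ± 2.23 in day3CL and 1.69% ± 0.9495 in day7CL. The difference between treated mice and day0RT was then 2.54 points (exact permutation p = 0.129). Mean depth also moved with the groups, with a median of 1704 counts per nucleus averaged over the day3C mice and 1182 over day0RT. The parts of lymphocyte content and depth in the differences between groups were not tested.

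Accessibility within the cluster could be compared between CL and cold only, with 5 libraries each, since no day0RT mouse had 10 VSMC nuclei. Of 641 genes tested 0 passed an adjusted p of 0.05 (0% called, edgeR), 37 had an unadjusted p under 0.05, and DESeq2 called 0 with 20 under 0.05. The smallest adjusted p was 0.267, at Rasa3 (log2 difference 1.01, CL minus cold). Ttn stood at 452, 427, 473, 432 and 714 CPM in the CL libraries and at 539, 428, 487, 422 and 540 CPM in the cold ones. The 2 sets overlapped, and the fitted difference (CL minus cold) was -0.03 ± 0.23 on the log2 scale (SE, edgeR adjusted p = 1.00), opposite in sign to the means of 499 and 483 CPM, so no direction is given. Mylk4 stood at 542, 256, 541, 303 and 872 CPM on CL and at 385, 405, 209, 359 and 450 CPM in the cold, and Ckm at 452, 341, 203, 245 and 79.3 against 296, 260, 464, 211 and 390 CPM. Both overlapped, with differences of 0.14 ± 0.26 and -0.22 ± 0.28 (edgeR adjusted p = 0.995 and 0.989).

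Genes of the lists were tested singly. The median fitted difference of the 9 sarcomere genes tested was -0.03, of the 8 calcium genes -0.06, of the 6 energy genes -0.07, of the 4 fast fibre genes 0.09 and of the 6 cold and adrenergic genes 0.09, against 0.01 over all genes, and 0 genes of any list passed in either direction. By mean CPM, 7 of the 9 sarcomere genes were higher on CL against 3 by the fit, and 4 against 2 of the 6 energy genes. The signs were opposite for 10 of the 44 list genes tested, so the medians give no direction. In the last list Per1, a clock gene, had the lowest unadjusted p, with 191 CPM on CL and 288 CPM in the cold (log2 difference -0.61 ± 0.33, SE, edgeR adjusted p = 0.873). Pde4d stood at 1705 CPM on CL and 1634 CPM in the cold, and Ucp3 at 272 and 260 CPM. The median SE of a gene was 0.27 on the log2 scale, so small differences were not detectable at this depth. The libraries of the 2 treatments also differ in day, with 3 day 3 libraries in each, but 1 day 1 and 1 day 7 on CL and 2 day 7 in the cold.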

How the data were processed

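Per the labels and the study's methods, the authors aligned reads of nuclei from whole iWAT to mm10 with Bowtie2, filtered and sorted them with SAMtools, called peaks per cluster with MACS2, removed doublets with Scrublet, clustered nuclei with Signac and annotated 12 clusters. The deposited counts form a binary matrix of peaks by nuclei, with mouse, group and cluster of each nucleus in a deposited annotation. The 4 samples of the series are sequencing lanes that each hold all mice, so groups came from that annotation.

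Counts were summed per mouse or cluster. Genes were given all peaks over their body or up to 2000 bases upstream, in GRCm38 (mm10). Tests of genes and of nuclei numbers used edgeR 4.0.16 (two-sided quasi-likelihood test, TMM factors for genes and the nuclei of a mouse as offset for shares, a minimum count of 10, total of 15 and proportion of 0.7, prior count 2, Benjamini-Hochberg adjustment) in R 4.3.3, with DESeq2 1.42.0 as the other tool. Exact permutation tests went through all regroupings of the mice with numpy 2.4.6. Wilson and exact counting intervals came from scipy 1.17.1. Cold and CL could not be tested against day 0 within the cluster, since no day 0 mouse had even 5 VSMC nuclei. P-values measure the spread between mice. The steps were tested on simulated data.

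The members and gene lists were chosen with earlier results of these data known. Named are list genes, the 20 genes with the largest ratio to the next cluster among those with at least 50 VSMC counts, the 10 preferred peaks with the largest ratio, and up to 3 genes in each direction per contrast past an adjusted p of 0.05, of which there were none. Some list genes were counted with their list but are not reported here by name. Rasa3 and the genes counted by preferred peaks were named after their values were seen. Alternatives were DESeq2, TMM factors for shares, other filters on low counts, promoter peaks only, at least 5 nuclei per library, deeper nuclei, nuclei other than lymphocytes, counts per nucleus, thinned nuclei, means over mice, stricter limits for peaks, the replicate number as a block, and leaving out each mouse. Fits on day 3 libraries only, and with day in the model, were added after the number of nuclei per mouse was seen, and list values without the genes the cluster was marked or named by, or without Synpo2, after the results were seen.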

Additional observations from a re-analysis of the deposited data

Results flagged for a closer look

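In 1 of 22 sets of library values examined, a single library stood far from the rest. Among the 5 CL libraries, Ttn reached 714 CPM in the third day7CL mouse, and the nearest of the other 4 had 473 CPM. This library had 13 VSMC nuclei and 12610 counts in genes. Chance alone would mark about 5 in 100 such sets.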

How the results depend on the processing

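The share of VSMC nuclei depended on the method. In day3C against day0RT it passed the threshold with DESeq2 (log2 difference 4.50, adjusted p = 0.0412) and over nuclei with at least 1000 counts (5.00, adjusted p = 0.0153), where day7C (3.93) and day3CL (3.95, both adjusted p = 0.0480) passed as well. The other 26 of 30 alternatives that left out no mouse kept the direction and the side of the threshold. The day1CL difference of 1.88 moved to 0.83 with TMM factors and 1.00 over nuclei other than lymphocytes, and was 1.98 with DESeq2. With the replicate number as a block the day3C difference was 5.00 (adjusted p = 0.0724), and no call changed. The study names 3 independent batches, but no source used here says which mice formed one. The deviations of same-numbered mice correlated at -0.03 on average (63 pairs, from -0.93 to 0.89), so the numbers were not taken to pair mice. Leaving out each mouse in turn gave 0.77 to 2.84 for day1C, 3.81 to 5.89 for day3C, 2.57 to 4.79 for day7C, -3.81 to 3.36 for day1CL, 2.82 to 4.90 for day3CL and 1.66 to 3.79 for day7CL. The day1CL difference turned to -3.81 without the third mouse of that group, the only one with VSMC nuclei. Day3C passed without the third day1CL mouse (adjusted p = 0.0265) or the second day7C mouse (0.0443). The permutation differences ran from 0.714 to 0.942 points for treated against day0RT (exact p 0.103 to 0.237) and from -0.675 to -0.216 for CL against cold (exact p 0.173 to 0.574).

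CL against cold called 0 genes under every alternative fitted: 0 of 16150 without a filter (942 at an unadjusted p under 0.05), 0 of 158 with at least 5 nuclei per library, 0 of 13 with promoter peaks, 0 of 975 on day 3 alone, with and without the block, 0 of 771 with day in the model, and 0 without each library. Of the 62 sarcomere, calcium and energy genes at the top, 47 stayed there with promoter peaks (54 of them ranked) and 59 to 61 under the other 4 alternatives with whole lists. The smooth muscle and pericyte lists had 3 of 23, and 1 of 20 with promoter peaks, 5 of 23 by counts per nucleus and 1 of 22 when thinned. The slow fibre list had 1 of 10, and 0 of 4, 0 of 10 and 2 of 9 in the same order, and 2 of 10 without the mouse with the most VSMC nuclei, the first of day3C. The 1614 preferred peaks became 1059 at 8 times every other cluster, 259 at 40 or more nuclei and 881 without that mouse.

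The limits are few nuclei, at most 57 in a mouse, no day 0 library, and binary counts that cannot tell 1 read from several. Peaks between genes are given to no gene, and shared peaks to each.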
